A study of Mus musculus with 4 samples.

Results

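The genes described here are 10 regulators of the step from G1 into S phase: the D cyclins Ccnd1, Ccnd2 and Ccnd3, the E cyclins Ccne1 and Ccne2, the kinases Cdk4 and Cdk6, and the CDK inhibitors Cdkn1b, Cdkn2c and Cdkn2d. They were chosen by name, 10 of the 32285 genes in each count matrix, and all 10 had at least 1 UMI (a uniquely tagged mRNA molecule) in each library. They were followed in LSK cells, the lineage-negative Sca1+ c-Kit+ compartment of stem cells and early progenitors, from E17.5 mouse fetal liver. The KO library came from Vav-Cre:Bclaf1 f/f embryos, in which Cre is driven by Vav sequences active in blood cells, and the WT library from Bclaf1 f/f embryos, which carry the same floxed alleles. CITE-seq, which counts mRNAs and antibody tags in the same single cells, was run on 1 library per genotype. Each library pooled cells of 10 embryos, of which 20000 cells were sorted and 10000 loaded. Loss of Bclaf1, presence of Cre and any difference between the 2 libraries cannot be told apart, and no comparison below is a test. Levels are UMIs per 1000000 gene UMIs (CPM) summed over cells, with exact Poisson 95% intervals for levels and exact conditional binomial 95% intervals for log2 ratios. These cover counting error only.

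D cyclins bind CDK4 and CDK6, and these complexes phosphorylate the RB protein, which then releases E2F transcription factors. E2F factors drive genes of S phase, among them the E cyclins, whose complexes with CDK2 carry cells into DNA replication. INK4 inhibitors such as the products of Cdkn2c (p18) and Cdkn2d (p19) bind CDK4 and CDK6 alone, whereas the Cdkn1b product (p27) binds cyclin-CDK complexes, and in blood stem cells CDK6, p18 and p27 are known from mouse work as regulators of quiescence and cell cycle entry.

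Bclaf1 (ENSMUSG00000037608, chr10:20310512-20342644 in GRCm38.p6) had 75.8 CPM in KO and 217.8 CPM in WT cells, a log2 ratio of -1.52 (-1.56 to -1.49). Which exons the floxed allele removes is not given in the sources used here, so remaining 3' UMIs do not show intact transcript. The 2676 KO cells held 104358292 gene UMIs with a median of 34187.5 per cell, and the 5345 WT cells held 141419013 with a median of 22734.0, and 5 barcodes were shared. Antibody tags for CD150 and CD48 split the cells into 4 gates. The CD150+CD48- gate, where stem cells are sought, held 75 KO and 199 WT cells (2.80% and 3.72%). The CD150-CD48- gate held 93 KO and 210 WT cells, the CD150+CD48+ gate 293 and 490, and the CD150-CD48+ progenitor gate 2215 and 4446. RNA followed these labels in the stem gate over the CD150-CD48+ gate: Slamf1, which encodes CD150, had log2 ratios of 3.45 in KO and 3.50 in WT, Procr, which encodes CD201, 3.33 and 3.002, and Cd48 -5.10 and -5.29. A list of 12 stem cell markers summed to 2035 CPM in KO and 1914 CPM in WT stem-gate cells, against 413 and 469 CPM in CD150-CD48+ cells. RNA of the haemoglobin genes Hba-a1 and Hbb-bt, those in the erythroid marker list, also differed between the gates. It summed to 2212 CPM in KO and 2133 CPM in WT stem-gate cells, against 444 and 603 CPM in CD150-CD48+ cells. Its part in the gate comparisons was not tested.

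Between genotypes, Cdk6, the D-cyclin partner kinase, had the largest ratio over all LSK cells among the 9 genes with a mean of at least 5 CPM, and was higher in the KO library. The other 8 were less than 25% higher and less than 20% lower, the limits called the fold below. Cdk6 (ENSMUSG00000040274, chr5:3341004-3531008) had 17343 UMIs or 166.2 CPM in KO and 16838 UMIs or 119.1 CPM in WT cells. That is a log2 ratio of 0.48 (0.45 to 0.51), or 1.40-fold. By the same rule, 7.47% of 9229 genes were at least 25% higher in KO and 10.0% were past the fold in either direction, so 1 of 9 measured members is close to the background share. Within all genes, 2.93% had a higher ratio than Cdk6. The median log2 ratio was -0.05 over the 9 members and 0.07 over all genes.

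Its paralog Cdk4 (ENSMUSG00000006728, chr10:127063535-127067288), which binds the same cyclins, leaned the other way. Cdk4 had 262.8 CPM in KO and 292.9 CPM in WT cells, a log2 ratio of -0.16 (-0.18 to -0.13), and 89.4% of genes had a higher ratio. The D cyclins were at or slightly below the WT level. Ccnd1 had 54.1 CPM in KO and 61.8 CPM in WT cells (-0.19; -0.24 to -0.14). Ccnd2 had 175.5 and 182.1 CPM (-0.05), and Ccnd3 76.5 and 82.3 CPM (-0.11). For the E cyclins, Ccne1 had 18.6 CPM in KO and 16.6 CPM in WT cells (0.16; 0.08 to 0.25). Ccne2 had 20.4 and 20.8 CPM (-0.03), and its interval of -0.11 to 0.05 covered 0. Of the inhibitors, Cdkn1b had 41.1 CPM in KO and 36.5 CPM in WT cells (0.17; 0.11 to 0.23), and Cdkn2d had 30.5 and 33.8 CPM (-0.15). Cdkn2c was rare, with 109 UMIs or 1.04 CPM in KO and 104 UMIs or 0.735 CPM in WT cells, under the 5 CPM minimum. Its log2 ratio of 0.51 (0.11 to 0.91) was close to that of Cdk6, but on these few UMIs it became -1.41 when free RNA was subtracted. Summed over all 10 genes the libraries were close, at 846.7 CPM in KO and 846.5 CPM in WT cells.

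The opposite leanings of Cdk6 and Cdk4 recurred across subsets of cells. Cells of both libraries were grouped into 17 expression clusters without use of the 10 genes. Cdk6 was higher in KO in 17 of 17 clusters, with log2 ratios of 0.01 to 0.61 and the whole interval above 0 in 12, whereas 2.22% of all genes were higher in KO in every cluster. Cdk4 was lower in KO in 17 of 17 clusters, from -0.48 to -0.08 and with the interval below 0 in 11, against 1.42% of genes lower in every cluster. Cdkn1b was higher in KO in 15 of 17 clusters, with the interval above 0 in 7. Ccne1 was higher in 3 clusters and lower in 14, although it was higher over all cells. The clusters share their library, so they do not stand in for replicates.

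Of the 9 measured members Cdk6 also had the largest spread across surface gates, and its level was low in both CD48- gates. In the CD150+CD48- stem gate it had 51.3 CPM (82 UMIs) in KO and 42.5 CPM (133 UMIs) in WT cells. CD150-CD48- cells had 64.4 CPM in KO and 42.6 CPM in WT. Both CD48+ gates were higher in each library: CD150+CD48+ cells had 184.4 CPM in KO and 137.5 CPM in WT, and CD150-CD48+ cells 168.2 and 120.9 CPM. From the lowest to the highest of these 8 pools the level differed 4.34-fold. Stem-gate cells over CD150-CD48+ cells gave log2 ratios of -1.71 (-2.04 to -1.40) in KO and -1.51 (-1.77 to -1.26) in WT. Gates set by other rules gave smaller KO differences, -0.63 with Otsu thresholds and -0.66 with fixed quantiles. Those rules put the CD48 cut higher and the CD150 cut lower in both libraries. Their stem gates thus also held cells with more CD48 and less CD150 tag. Haemoglobin in lymphoid-like cells, a class named further on, bounded free RNA there at 20.5 CPM of Cdk6 in KO and 37.3 CPM in WT. The WT stem-gate level of 42.5 CPM lay near the latter value. No bound was taken from stem-gate cells, so the share of free RNA in that gate is not known.

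KO over WT, Cdk6 had a ratio above 0 in each gate. The log2 ratio was 0.48 (0.44 to 0.51) in CD150-CD48+ cells, 0.42 (0.33 to 0.51) in CD150+CD48+ cells and 0.59 (0.24 to 0.95) in CD150-CD48- cells. In the stem gate it was 0.27 (-0.14 to 0.68), which is under the fold, and its interval covered 0. In CD150-CD48+ cells Cdk6 was the 1 member of 9 past the fold, where 7.69% of 9177 genes were at least as much higher and 10.1% were past it in either direction. It was again the only member past it in CD150+CD48+ cells, where 11.2% of 9096 genes were that much higher and 18.6% past the fold in either direction. Cdk4 was lower in KO in 3 gates, at -0.39 (-0.60 to -0.19) in the stem gate, -0.17 in CD150-CD48+ and -0.09 in CD150+CD48+ cells, but 0.21 (0.03 to 0.38) in CD150-CD48- cells. Cdk4 had 170.9 CPM in KO and 224.6 CPM in WT stem-gate cells, 225.2 and 195.3 CPM in CD150-CD48- cells, 252.5 and 268.5 CPM in CD150+CD48+ cells, and 266.9 and 299.8 CPM in CD150-CD48+ cells. Its highest level in each library was thus in CD150-CD48+ cells, and the stem-gate over CD150-CD48+ ratio was -0.64 (-0.82 to -0.47) in KO and -0.42 (-0.53 to -0.31) in WT.

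**Figure D1:**
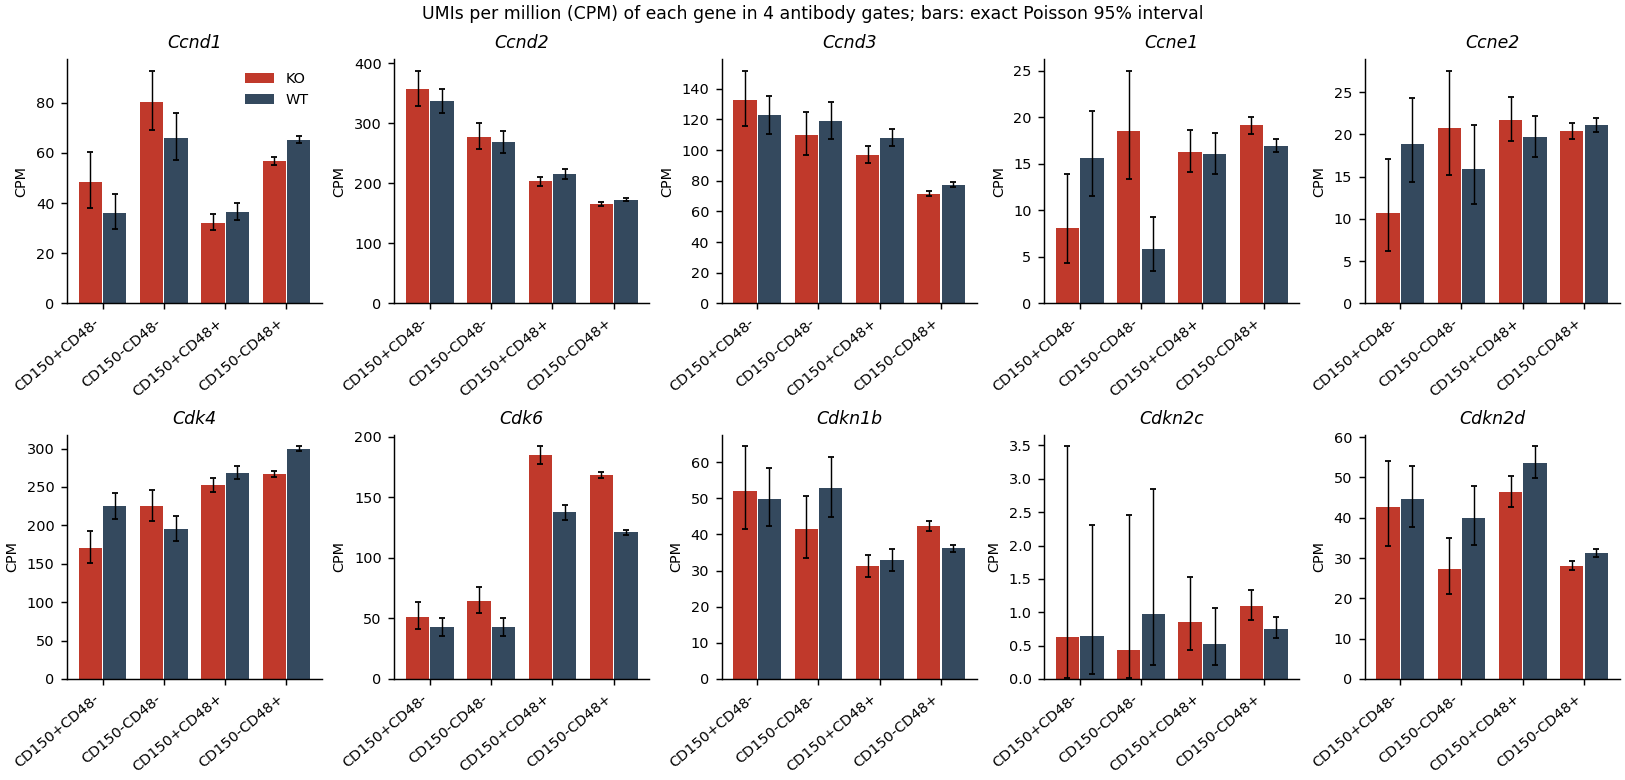
CPM of each of the 10 genes in the 4 surface gates, KO beside WT, with exact Poisson 95% intervals. Cdk6 is low in both CD48- gates and higher in KO in each gate, while Ccnd2 and Ccnd3 are highest in the CD150+CD48- gate.

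RefSeq promoters were matched for 7 of the 10 genes, not for Ccnd1, Ccnd2 and Ccne2. Of those matched, Cdk6 is shown because it had the largest measured ratio between genotypes, and Ccne1, Cdkn2c and Cdkn1b because their levels followed the cell cycle in different ways, described further on. Each run is the 250 bases upstream of a RefSeq start in GRCm38.p6, written in the direction of transcription. Capitals mark TCCCGC or its reverse complement GCGGGA, a core of known E2F binding sites. The regions are chr5:3343643-3343892 on the plus strand for Cdk6, chr7:38107491-38107740 on the minus strand for Ccne1, chr4:109666757-109667006 on the minus strand for Cdkn2c and chr6:134920151-134920400 on the plus strand for Cdkn1b. The Cdk6 run lies inside the gene span of chr5:3341004-3531008 given above, upstream of a RefSeq start within that span.
Cdk6: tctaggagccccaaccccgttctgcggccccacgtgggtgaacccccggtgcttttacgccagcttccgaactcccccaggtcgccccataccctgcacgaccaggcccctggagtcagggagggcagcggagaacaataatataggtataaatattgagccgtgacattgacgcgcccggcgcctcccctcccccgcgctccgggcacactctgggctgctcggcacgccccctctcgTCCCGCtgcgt
Ccne1: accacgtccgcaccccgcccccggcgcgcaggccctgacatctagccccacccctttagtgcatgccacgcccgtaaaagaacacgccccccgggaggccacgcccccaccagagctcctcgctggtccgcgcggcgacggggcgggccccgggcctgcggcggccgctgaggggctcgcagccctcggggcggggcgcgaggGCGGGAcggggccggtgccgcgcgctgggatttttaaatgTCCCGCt
Cdkn2c: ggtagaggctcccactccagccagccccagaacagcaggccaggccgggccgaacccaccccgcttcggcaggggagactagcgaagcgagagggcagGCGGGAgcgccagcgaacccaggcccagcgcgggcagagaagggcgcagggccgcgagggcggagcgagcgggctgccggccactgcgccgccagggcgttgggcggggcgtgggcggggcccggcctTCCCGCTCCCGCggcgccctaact
Cdkn1b: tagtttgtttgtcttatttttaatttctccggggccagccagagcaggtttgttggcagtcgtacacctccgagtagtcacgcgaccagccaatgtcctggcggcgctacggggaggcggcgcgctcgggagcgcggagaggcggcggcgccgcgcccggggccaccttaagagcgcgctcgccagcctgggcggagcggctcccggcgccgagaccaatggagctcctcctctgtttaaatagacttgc
Ccne1 held 2 matches, this Cdkn2c start 3, Cdk6 1 and Cdkn1b 0. A second Cdkn2c start in the table, with upstream bases chr4:109665373-109665622, held 0. Over the 7 genes, 4 of 9 promoters held a match. Of all 32851 promoters 16.9% held one, and of the 9178 with at least 60% G and C 41.7% did. The member promoters include a Ccnd3 start at 59.6% G and C and the second Cdkn2c start at 42.8%, neither with a match. The members' share and the share at high GC content are therefore not of like sets. The matches describe letters and do not show binding.

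Among the D cyclins, Ccnd2 and Ccnd3 were highest in the stem gate of both libraries, and Ccnd1 was not. Ccnd2 (ENSMUSG00000000184, chr6:127125162-127152188) had 356.8 CPM in KO and 336.4 CPM in WT stem-gate cells. It had 277.7 and 268.2 CPM in CD150-CD48- cells, 203.3 and 215.2 CPM in CD150+CD48+ cells, and 165.4 and 172.3 CPM in CD150-CD48+ cells. The order of the gates was thus the same in both libraries, and KO and WT lay closer to each other than neighbouring gates did. Stem-gate over CD150-CD48+ log2 ratios were 1.11 (0.99 to 1.23) in KO and 0.97 (0.88 to 1.05) in WT. Ccnd3 (ENSMUSG00000034165, chr17:47505051-47599689) had 132.7 CPM in KO and 122.7 CPM in WT stem-gate cells, against 71.6 and 77.4 CPM in CD150-CD48+ cells, for ratios of 0.89 (0.69 to 1.09) in KO and 0.66 (0.51 to 0.81) in WT.

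Ccnd1 (ENSMUSG00000070348, chr7:144929931-144939831) was higher in both CD150- gates than in both CD150+ gates of each library. It had 80.2 CPM in KO and 66.1 CPM in WT CD150-CD48- cells, and 56.8 and 65.2 CPM in CD150-CD48+ cells. Both CD150+ gates were lower, with 32.2 CPM in KO and 36.5 CPM in WT CD150+CD48+ cells, and 48.2 and 36.1 CPM in the stem gate. CD150+CD48+ over CD150-CD48+ cells gave log2 ratios of -0.82 in KO and -0.84 in WT. Stem-gate over CD150-CD48+ cells gave -0.24 (-0.58 to 0.09) in KO and -0.85 (-1.13 to -0.58) in WT, a KO minus WT difference of 0.62 (0.20 to 1.04). Over the processing settings tried, the KO ratio ranged from -0.87 to 0.24, so its sign was not kept, and the WT ratio from -1.27 to -0.57. As a share of all D-cyclin UMIs, Ccnd1 made up 8.96% in KO and 7.29% in WT stem-gate cells, against 19.3% and 20.7% in CD150-CD48+ cells. In the stem gate itself, KO over WT, Ccnd1 had a ratio of 0.42 (-0.02 to 0.85), from 77 and 113 UMIs. That ratio turned to -0.08 with Otsu gates and -0.13 with fixed quantiles.

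The E cyclins had few UMIs in the stem gate. Ccne1 (ENSMUSG00000002068, chr7:38097984-38107490) had 13 UMIs or 8.14 CPM in KO and 49 UMIs or 15.7 CPM in WT stem-gate cells. CD150-CD48- cells showed the reverse, with 42 UMIs or 18.5 CPM in KO and 18 UMIs or 5.86 CPM in WT. Larger pools differed little, with 16.3 and 16.0 CPM in CD150+CD48+ cells and 19.1 and 17.0 CPM in CD150-CD48+ cells. The KO over WT log2 ratio was -0.94 (-1.95 to -0.04) in the stem gate and 1.66 (0.83 to 2.54) in CD150-CD48- cells. Ccne2 (ENSMUSG00000028212, chr4:11190433-11204779) had 17 UMIs or 10.6 CPM in KO and 59 UMIs or 18.8 CPM in WT stem-gate cells (-0.82; -1.70 to -0.03). In CD150-CD48+ cells it had 20.4 CPM in KO and 21.1 CPM in WT. Stem-gate over CD150-CD48+ ratios were -1.23 (-2.15 to -0.46) in KO and -0.12 (-0.56 to 0.29) in WT for Ccne1, and -0.94 in KO and -0.16 in WT for Ccne2. Neither KO ratio kept its sign when the gates were set by Otsu thresholds or quantiles. These wider stem gates took in further cells, as described for Cdk6. Among cycle-low stem-gate cells the KO over WT ratio was 0.04 for Ccne1, from 6 UMIs in KO and 11 in WT, and 0.50 for Ccne2, from 3 and 4 UMIs, too few to give a direction. With Otsu gates the KO over WT ratios in the stem gate were 0.66 for Ccne1 and 0.12 for Ccne2, and with fixed quantiles 0.31 and 0.0043. Of the 75 KO stem-gate cells, 3 were S-high and 6 G2/M-high, and of the 199 WT stem-gate cells 21 and 18 were. In the CD150-CD48- gate, 8 of 93 KO and 9 of 210 WT cells were S-high, and 8 and 21 were G2/M-high. The part of these cycle classes in the E cyclin ratios was not tested.

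Counted together, 4 of 9 members were past the fold, KO over WT, in the stem gate, 1 higher (Ccnd1) and 3 lower (Ccne1, Ccne2 and Cdk4). Of 9855 genes there, 36.7% were past the fold, 25.3% higher and 11.3% lower, on far fewer UMIs. In CD150-CD48- cells 5 of 9 members were past it, 3 higher and 2 lower, against 38.3% of 9897 genes, 18.7% higher and 19.6% lower. The higher members were Ccne1, Ccne2 (0.38) and Cdk6, and the lower ones Cdkn1b (-0.35; -0.73 to 0.03) and Cdkn2d (-0.55; -1.02 to -0.10). Among cycle-low CD150-CD48- cells, Cdkn1b had 48.5 CPM in KO and 50.5 CPM in WT, and Cdkn2d 34.7 and 38.6 CPM. Ccnd1 had 114.3 CPM in KO and 61.5 CPM in WT there, Ccnd2 379.0 and 289.7 CPM, and Cdk6 52.1 and 41.3 CPM. The part of cycle class in these ratios was not tested.

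Only Cdkn1b and Cdkn2d among the inhibitors were measured well enough to follow through the gates. Cdkn1b (ENSMUSG00000003031, chr6:134920401-134925525) had 52.0 CPM in KO and 49.8 CPM in WT stem-gate cells, 41.4 and 52.7 CPM in CD150-CD48- cells, 31.2 and 32.9 CPM in CD150+CD48+ cells, and 42.4 and 36.1 CPM in CD150-CD48+ cells. Its lowest level in each library was in the CD150+CD48+ gate, and its stem-gate over CD150-CD48+ ratio was 0.29 (-0.04 to 0.61) in KO and 0.46 (0.22 to 0.70) in WT. Cdkn2d (ENSMUSG00000096472, chr9:21288459-21291421) was instead higher in both CD150+ gates than in CD150-CD48+ cells. Its levels were 42.6 CPM in KO and 44.7 CPM in WT stem-gate cells and 46.4 and 53.7 CPM in CD150+CD48+ cells, against 28.1 and 31.1 CPM in CD150-CD48+ cells. CD150-CD48- cells had 27.3 CPM of Cdkn2d in KO and 40.04 CPM in WT, the latter close to the WT stem gate. Among cycle-low WT cells the stem gate had 38.15 CPM and the CD150-CD48- gate 38.63 CPM. Cdkn2c (ENSMUSG00000028551, chr4:109660876-109666756) had 1 UMI in KO and 2 UMIs in WT stem-gate cells, so no gate pattern could be read for it.

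**Figure D2:**
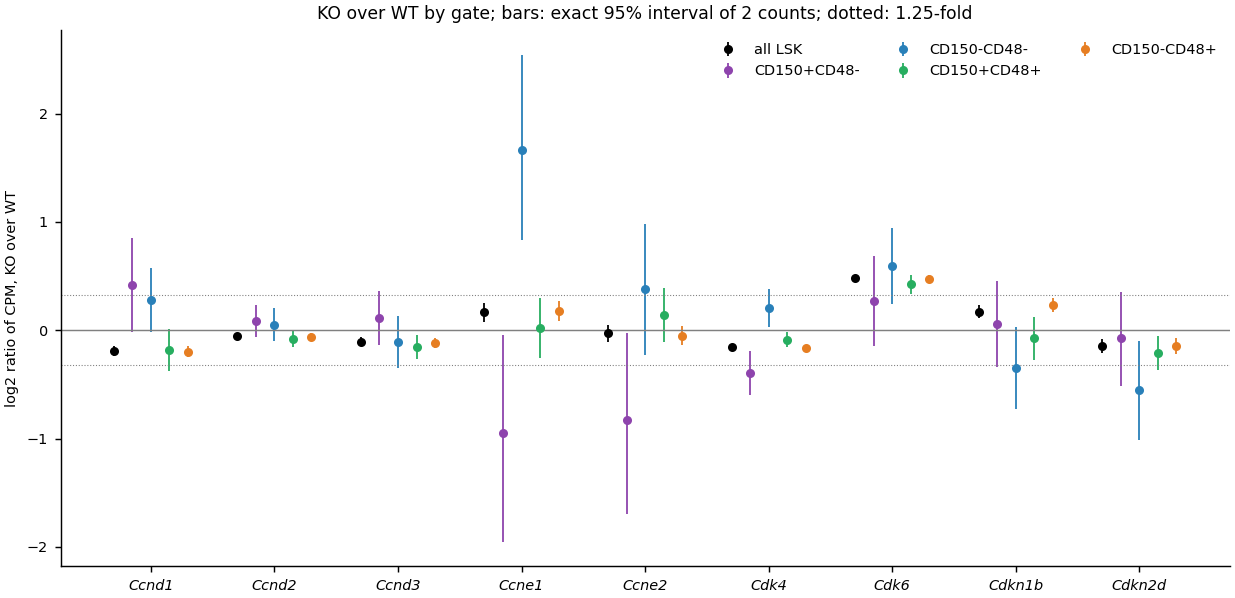
Log2 ratio of KO over WT for the 9 genes with a mean of at least 5 CPM, over all LSK cells and in each gate, with exact 95% intervals (counting error only) and dotted lines at the fold. Cdk6 lies above 0 in every pool and at 0.48 over all cells, while the Ccne1 ratios of -0.94 and 1.66 in the small CD48- gates have wide intervals.

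Across the step between the stem gate and the CD150-CD48+ gate, 7 of 9 members were past the fold in each library. In KO, 3 were higher and 4 lower, where 64.0% of 9752 genes were past the fold, 44.7% higher and 19.2% lower. In WT, 4 were higher and 3 lower, where 57.0% of 9575 genes were past it, 41.1% higher and 15.9% lower. The members' median log2 ratio was -0.24 in KO and -0.12 in WT, against 0.24 and 0.21 over all genes. Scaling by median of ratios instead of total UMIs took out this shift of 0.24 in KO and 0.21 in WT, and the members then split as 3 higher and 5 lower in KO and 2 higher and 4 lower in WT, where 61.6% of genes in KO and 53.4% in WT were past the fold. Ccnd2 and Ccnd3 were higher in the stem gate and Cdk6 and Cdk4 lower, in both libraries, under both scalings.

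**Figure D3:**
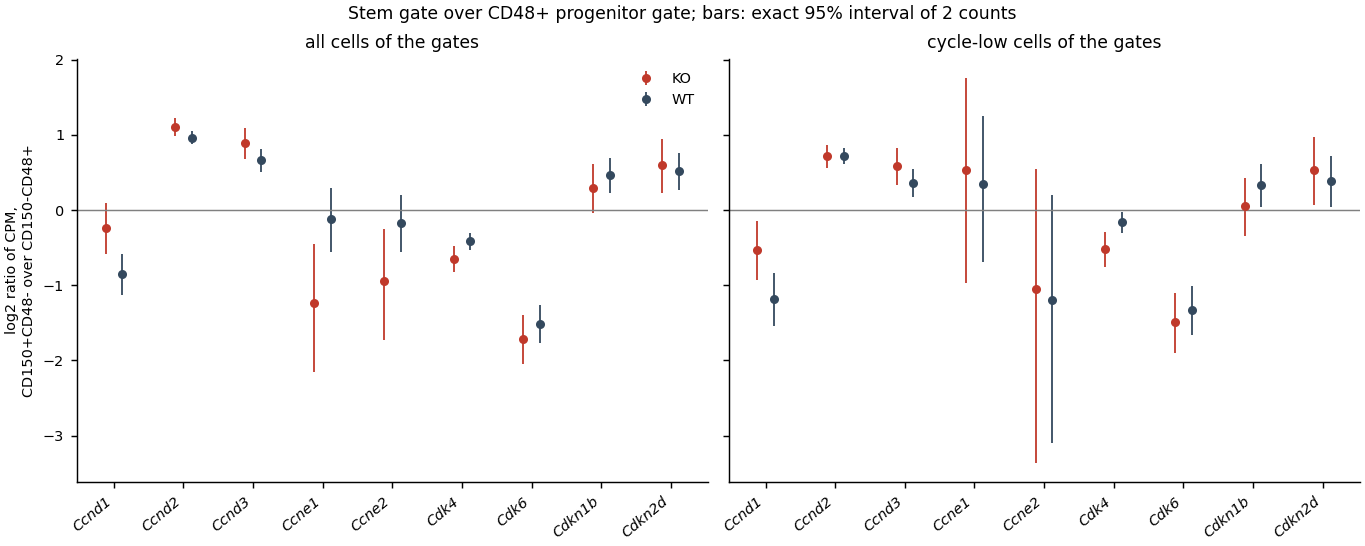
Log2 ratio of CD150+CD48- cells over CD150-CD48+ cells for the 9 measured genes, KO left of WT, in all cells of the gates and in their cycle-low cells, with exact 95% intervals that cover counting error only. Ccnd2, Ccnd3 and Cdkn2d lie above 0 and Cdk4 and Cdk6 below 0 in both libraries and both panels.

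Because stem-gate cells were mostly cycle-low (58 of 75 in KO and 150 of 199 in WT), the same ratio was taken within cycle-low cells alone. Cdk6 had -1.49 in KO and -1.33 in WT there, and Ccnd2 had 0.72 in both. Ccnd3 had 0.59 in KO and 0.36 in WT, Cdkn2d 0.53 and 0.39, and Ccnd1 -0.52 and -1.18. Cdk4 had -0.52 in KO and -0.16 in WT. Set beside the ratios over all cells of the gates, those of Ccnd2, Ccnd3, Cdk4 and Cdk6 were smaller in size, those of Ccnd1 larger, and that of Cdk4 in WT was under the fold. Cdkn1b had 0.05 in KO and 0.33 in WT. Of all genes 51.1% in KO and 47.6% in WT were past the fold in that comparison.

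Cell cycle stage was scored per cell from shares of UMIs in 41 S-phase and 52 G2/M genes, with none of the 10 genes among them. Cells were ranged as cycle-low (782 KO and 1988 WT), intermediate (566 and 1175), S-high (533 and 971) and G2/M-high (795 and 1211). The classes are ranges of a score, and 7.63% of cells lay within 10% of the G2/M cut and 12.6% within 10% of the S cut. G2/M-high cells made up 29.7% of KO and 22.7% of WT cells, and cycle-low cells 29.2% and 37.2%. The KO cells also had more UMIs per cell, whose part in these shares was not tested.

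The E cyclins followed S phase most closely. Ccne1 had 3.55, 22.6, 36.0 and 13.1 CPM in cycle-low, intermediate, S-high and G2/M-high cells of KO, and 4.12, 20.5, 34.9 and 10.6 CPM in those of WT. Ccne2 had 5.13, 18.1, 48.8 and 12.0 CPM in KO and 4.00, 19.6, 51.5 and 13.96 CPM in WT, in the same order of classes. Both genes were highest in S-high cells of each library. S-high over cycle-low log2 ratios were 3.34 in KO and 3.08 in WT for Ccne1, and 3.25 and 3.69 for Ccne2. Cdkn2c, though rare, had 72 UMIs in KO and 65 UMIs in WT G2/M-high cells, against 1 and 3 UMIs in cycle-low cells, which is 1.75 and 1.495 CPM against 0.0564 and 0.0909 CPM. Its level was higher at each step of the 4 classes in both libraries.

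The kinases differed less between classes than the E cyclins did. Cdk4 had 200.7, 264.0, 289.5 and 273.6 CPM over the 4 classes in KO and 228.4, 308.0, 333.0 and 302.5 CPM in WT. Cdk6 had 127.0, 151.2, 185.9 and 179.8 CPM in KO and 89.5, 119.2, 129.9 and 134.1 CPM in WT. S-high over cycle-low ratios were 0.53 in KO and 0.54 in WT for Cdk4, and 0.55 and 0.54 for Cdk6. In each class Cdk6 was higher in KO, with ratios of 0.50 (0.42 to 0.58) in cycle-low, 0.34 (0.28 to 0.41) in intermediate, 0.52 (0.45 to 0.58) in S-high and 0.42 (0.37 to 0.47) in G2/M-high cells. It was the only member past the fold in each of the 4 classes, where 12.8%, 12.7%, 13.1% and 11.6% of genes were past it. Cdk4 was lower in KO in each class, from -0.22 to -0.14.

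Ccnd2 and Ccnd3 were highest in cycle-low cells of both libraries. Ccnd2 had 246.7, 180.0, 184.5 and 137.2 CPM over the 4 classes in KO and 240.9, 181.4, 197.6 and 127.5 CPM in WT. Ccnd3 had 103.0, 74.8, 73.9 and 67.5 CPM in KO and 101.9, 77.1, 81.1 and 72.4 CPM in WT. Ccnd1 was lowest in G2/M-high cells, with 72.5, 62.3, 73.6 and 30.7 CPM in KO and 69.7, 72.0, 85.6 and 31.4 CPM in WT. Its S-high over cycle-low ratio was 0.02 (-0.08 to 0.13) in KO and 0.298 (0.22 to 0.38) in WT, a KO minus WT difference of -0.28 (-0.41 to -0.14). The G2/M-high over cycle-low ratio of Ccnd1 was -1.24 in KO and -1.15 in WT. Cdkn1b was lowest in S-high cells, with 52.3, 32.4, 25.8 and 49.7 CPM in KO and 42.9, 26.1, 23.2 and 49.0 CPM in WT. Its S-high over cycle-low ratio was -1.02 in KO and -0.89 in WT, opposite in sign to the E cyclins. Cdkn2d had 30.9, 20.2, 19.7 and 42.1 CPM in KO and 31.1, 22.2, 23.4 and 52.2 CPM in WT, so its highest level was in G2/M-high cells.

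**Figure D4:**
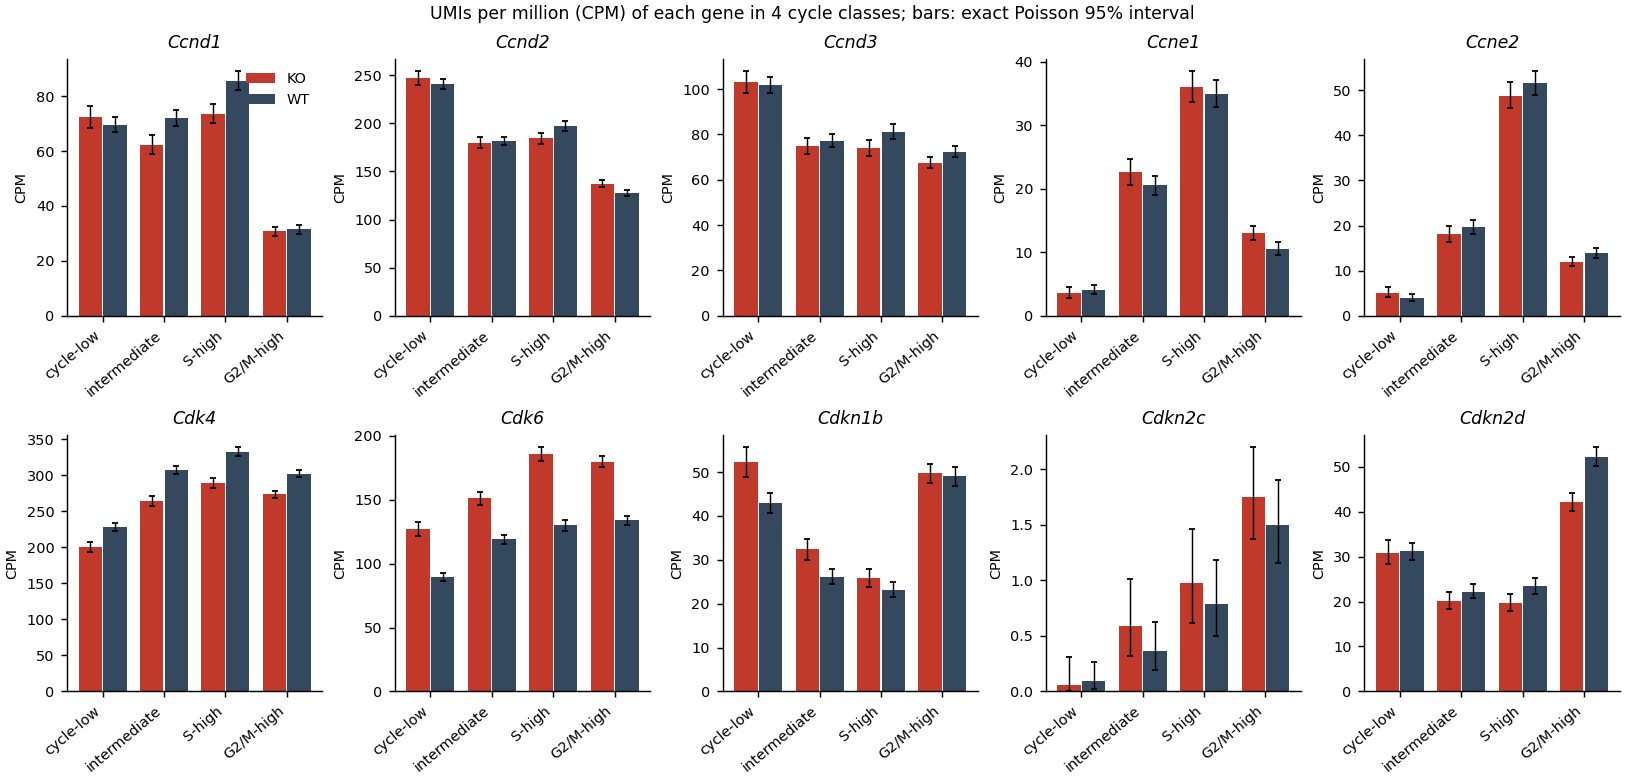
CPM of the 10 genes in cycle-low, intermediate, S-high and G2/M-high cells, KO beside WT, with exact Poisson 95% intervals. Ccne1 and Ccne2 peak in S-high cells, Cdkn1b is lowest there, and Ccnd1 is lowest in G2/M-high cells.

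By count, 8 of 9 members in KO (4 higher, 4 lower) and 7 of 9 in WT (4 higher, 3 lower) were past the fold in S-high over cycle-low cells. Of all genes 58.5% in KO (23.3% higher, 35.1% lower) and 51.9% in WT (22.2% higher, 29.7% lower) were. G2/M-high over cycle-low cells gave 8 of 9 in both libraries (5 higher, 3 lower), against 51.7% of genes in KO (21.1% higher, 30.6% lower) and 42.3% in WT (18.9% higher, 23.3% lower). Restricting to CD150-CD48+ cells kept these directions, with S-high over cycle-low ratios of 3.30 in KO and 3.07 in WT for Ccne1 and -0.998 and -0.88 for Cdkn1b, and a G2/M-high over cycle-low ratio of -1.13 and -1.18 for Ccnd1.

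Clusters were named where at least 3 markers of a cell type were at least 2-fold above the other cells and no other type had more of its markers among the 10 leading genes. HSC-like cells were 331 KO and 907 WT cells from 3 clusters, which the libraries filled in different proportions (187 KO and 401 WT cells, 75 and 390, and 69 and 116). The last of these was led by mitotic genes such as Fam83d, Aspm and Cdc25c, with 5 HSC markers past the limit but none among its 10 leading genes. The largest HSC-like cluster and the smaller of the 2 erythroid-like clusters (25 KO and 5 WT cells) also had none of their markers among those 10. The macrophage- or dendritic-like cluster was named from Csf1r, Cd74, H2-Aa and H2-Ab1, while C1qa, C1qb and Adgre1 of its list did not pass the limit. HSC-like cells had 86.4 CPM of Cdk6 in KO and 59.9 CPM in WT (0.53), and 61.1 and 55.5 CPM of Cdkn1b (0.14). Without the cluster led by mitotic genes the HSC-like levels were 73.2 CPM of Cdk6 in KO and 53.6 CPM in WT (0.45; 0.27 to 0.63), and 51.7 and 46.3 CPM of Cdkn1b. Ccnd2 had 272 CPM in KO and 268 CPM in WT HSC-like cells, the highest of the 7 named classes, and Ccne1 only 4.36 and 5.55 CPM. Erythroid-like cells (336 KO and 251 WT) had the opposite profile for the E cyclin and the inhibitors. They had 43.9 CPM of Ccne1 in KO and 48.8 CPM in WT, 21.5 and 17.3 CPM of Cdkn1b, and 12.2 and 12.7 CPM of Cdkn2d. Granulocyte-monocyte-like cells (91 KO and 81 WT) had the highest Cdk6, 265 CPM in KO and 214 CPM in WT (0.31), and the lowest Ccnd2, 95.2 and 99.3 CPM.

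Ccnd1 differed widely between lineages. Lymphoid-like cells (224 KO and 513 WT) had 113 CPM of it in KO and 121 CPM in WT, and macrophage- or dendritic-like cells (92 KO and 209 WT) 119 and 120.5 CPM. Granulocyte-monocyte-like cells had 18.6 CPM in KO and 26.3 CPM in WT, megakaryocyte-like cells (189 KO and 268 WT) 39.0 and 30.8 CPM, and erythroid-like cells 19.7 and 19.4 CPM. The INK4 inhibitors differed in where they were high. Macrophage- or dendritic-like cells had 9.84 CPM of Cdkn2c in KO and 5.67 CPM in WT, from 38 of all 109 and 33 of all 104 UMIs, the highest of the 7 classes. Cdkn2d had its highest KO level there, at 60.9 CPM in KO and 45.5 CPM in WT (0.42), and its highest WT level in megakaryocyte-like cells, at 58.4 CPM in KO and 60.5 CPM in WT.

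Within classes, Cdk6 had a KO over WT ratio above 0 in each of the 7, and Cdk4 one below 0 in each. Cdk6 was past the fold in HSC-like cells (0.53), where 16.2% of genes were that much higher in KO, in lymphoid-like cells (0.51; 12.8% of genes), in erythroid-like cells (0.44; 10.7%) and in macrophage- or dendritic-like cells (0.32; 23.0%). It was 0.24 in megakaryocyte-like cells and 0.15 in mast cell-like cells (46 KO and 71 WT), where its interval covered 0. Cdkn1b had 73.8 CPM in KO and 46.2 CPM in WT macrophage- or dendritic-like cells (0.68; 0.43 to 0.92), and 53.0 and 37.5 CPM in lymphoid-like cells (0.50; 0.28 to 0.72). It was also past the fold in granulocyte-monocyte-like cells (0.42; 0.0041 to 0.86), where 22.3% of genes were that much higher.

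Ccne1 had a ratio below 0 in each of the 7 named classes, from -1.73 in mast cell-like to -0.12 in megakaryocyte-like cells, and of -0.22 in unnamed cells, although it was 0.16 over all LSK cells. The erythroid-like class, where Ccne1 was highest, held 336 of 2676 KO and 251 of 5345 WT cells. The part of these proportions in the ratio over all cells was not tested. In mast cell-like cells Ccnd1 had 16.0 CPM in KO and 43.8 CPM in WT (-1.45), and Ccnd2 262 and 183 CPM (0.52). Of all genes 55.8% were past the fold in that small class.

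**Figure D5:**
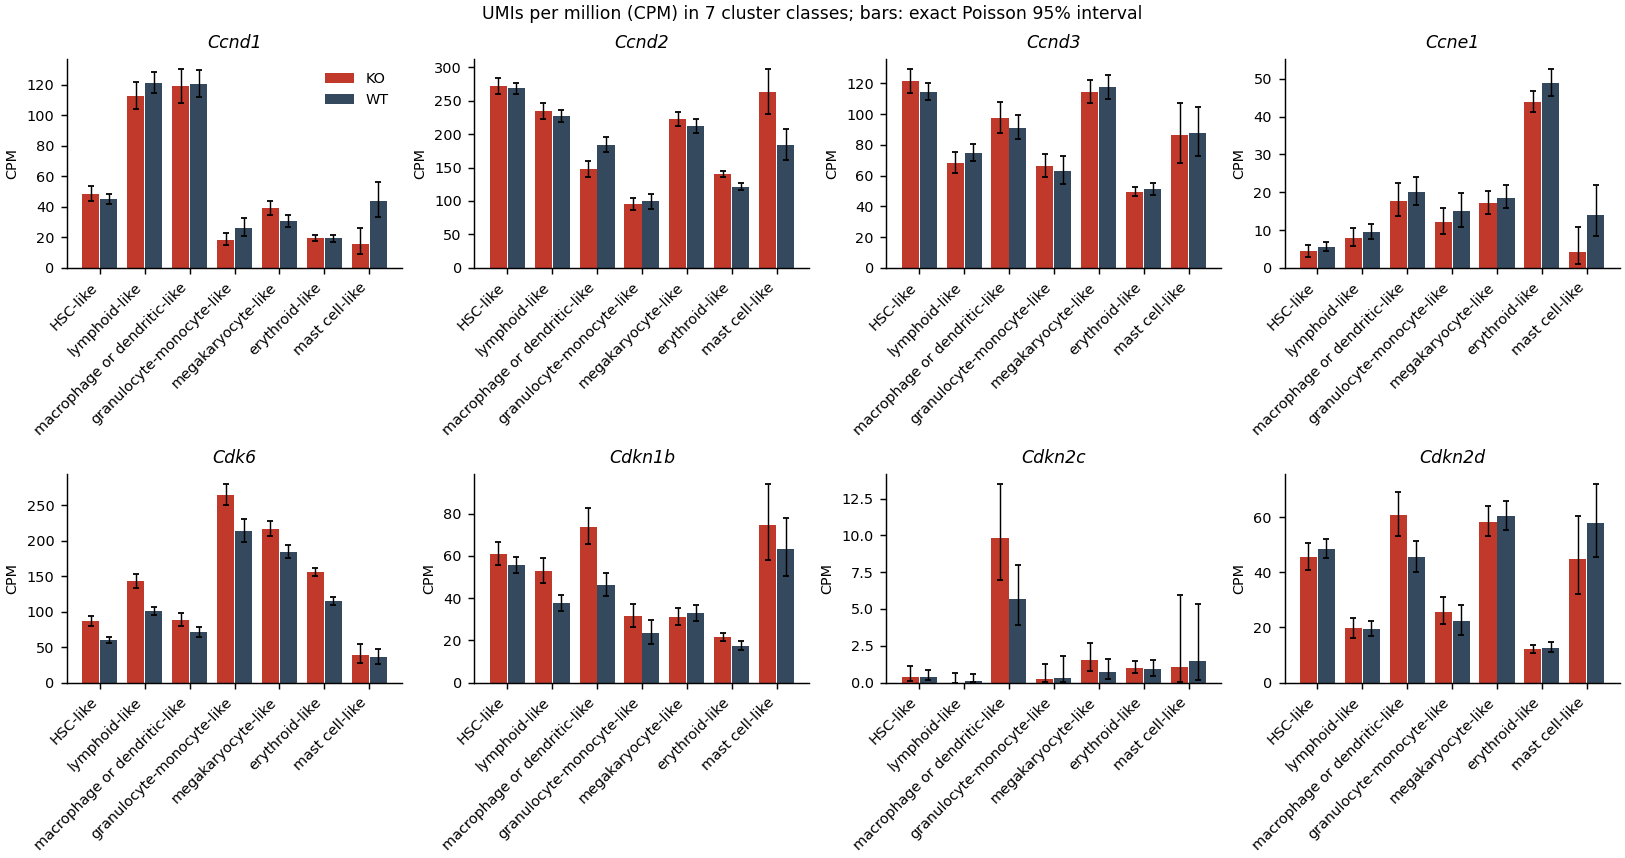
CPM of 8 of the 10 genes (without Ccne2 and Cdk4) in the 7 named expression classes, KO beside WT, with exact Poisson 95% intervals. Ccnd1 is highest in lymphoid-like and macrophage- or dendritic-like cells and low in erythroid-like cells, where Ccne1 is highest.

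Other genes of the RB and E2F pathway, a list of 45, were compared in the same way. Over all LSK cells 41 were measured, 7 past the fold higher and 1 lower in KO, with a median log2 ratio of 0.12. Over all genes the shares were 7.47% higher and 2.57% lower, and the median 0.07. Cdkn1a, which encodes the p21 inhibitor, had 15.7 CPM in KO and 6.58 CPM in WT cells (1.26; 1.14 to 1.37). In the stem gate it had 16.3 and 8.95 CPM (0.86; 0.04 to 1.69). Rb1, which encodes the RB protein, had 15.3 CPM in KO and 11.1 CPM in WT cells (0.46). Cdkn1c, which encodes the p57 inhibitor, was the one lower gene, with 23.4 and 31.5 CPM (-0.43). Between gates Cdkn1c was far higher in the stem gate, at 129.0 CPM in KO and 141.5 CPM in WT, against 19.5 and 26.3 CPM in CD150-CD48+ cells. Those ratios of 2.73 in KO and 2.43 in WT exceeded that of any of the 10 genes. The mitotic cyclin Ccnb1 had 12.52 CPM in KO stem-gate cells and 52.4 CPM in KO CD150-CD48+ cells (-2.07), and -1.87 in WT. Of the list, 11 genes were higher and 16 lower in the stem gate of KO out of 41, and 10 and 13 in WT out of 40. The shares over all genes were 44.7% higher and 19.2% lower in KO, and 41.1% and 15.9% in WT.

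Levels over the 8 gate-by-library pools were also compared between genes, as a description over pools that share libraries and cells. Ccnd2 and Ccnd3 ran together (Pearson r = 0.94 of log2 CPM with a pseudocount of 1), as did Cdk4 and Cdk6 (0.78) and Ccne1 and Ccne2 (0.77). Ccnd2 ran against Cdk6 (-0.87) and Ccnd1 against Cdkn2d (-0.83). Among 5597 genes with a mean of at least 20 CPM, those most like Cdk6 were Hnrnpab and Trip13 (0.99 each). Flt3, a receptor of lymphoid-primed progenitors, and Dap were most like Ccnd1 (0.96 each). For Cdkn2d they were H1fx (0.98) and Cd9 (0.95), for Ccnd2 Igf2bp2 and Gatad1 (0.99 each), and for Ccnd3 Slfn2 and Gng11 (0.99 each). Ccne1 was closest to Txn2 and Wdr83 (0.97 each), Ccne2 to Gins4 (0.96) and Dpy30 (0.95), Cdk4 to Fbxl6 and Mrps34 (0.98 each), and Cdkn1b to Gm4013 and Cast (0.98 each).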

How the data were processed

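For 1 library per genotype the authors deposited unfiltered UMI counts of genes and antibody tags. The file headers name Cell Ranger. Version 4.0.6, build mm10, Seurat and DESeq are named in the submitters' processing notes. The 10 genes, gene lists and settings were chosen with earlier results of these data known. The named genes were the 10, Bclaf1, 3 gate-check genes, up to 6 pathway genes per comparison with the largest log2 ratios, and the 2 genes most like each member.

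Barcodes were kept from 9992 UMIs in KO and 8178 in WT upward (the larger of 1000 and 10% of the top 6000 barcodes' 99th percentile), with no fewer than 500 genes and no more than 10% mitochondrial UMIs. Scrublet marked 7 KO and 0 WT barcodes, under 0.5%, which is not a working doublet call, so no cell was removed and doublets largely remained. Antibody counts were turned into centred log ratios and cut at the lowest point of a density smoothed at 0.2, a width chosen after seeing the antibody data as one that gave a valley for both antibodies in both libraries. Of the cells, 3.74% in KO and 3.29% in WT lay within 0.2 of the CD150 cut. For CD48 the cut was 0.85 in KO and 0.74 in WT, against 2.23 and 2.09 by Otsu thresholds and 2.39 and 2.45 by quantiles. For CD150 it was -0.28 and -0.10, against -1.25 and -1.16 by Otsu thresholds and -1.17 and -1.24 by quantiles. G2/M-high cells were the top 25% of all cells by G2/M share, and S-high cells the top 25% of the remaining cells by S share. Leiden clusters (resolution 1.0, scanpy 1.11.5) used 2000 variable genes without the 10 genes, 30 components and 15 neighbours. UMIs of all haemoglobin genes (names starting with Hba- or Hbb-) in lymphoid-like cells gave the bound on free RNA, read with the profile of empty droplets. It was 21.3% of UMIs in KO and 31.6% in WT lymphoid-like cells. The same share was subtracted from every pool of its library, and it was not measured in other classes or gates.

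UMIs were summed per library and class. A gene was counted past the fold if at least 25% higher or 20% lower, among genes with a mean of at least 5 CPM. Scripts (Python 3.11.15, scipy 1.17.1) were tested on simulated data. Alternatives changed the cell filter, gates, scaling, minimum level, depth and free RNA. Promoters came from RefSeq on GRCm38.p6, positions from its annotation.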

Additional observations from a re-analysis of the deposited data

Results flagged for a closer look

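For 2 genes the KO over WT difference pointed different ways in different gates, with exact intervals on opposite sides of 0. The difference between gates was not tested, since each genotype had 1 library. Ccne1 had log2 ratios of -0.94 in CD150+CD48- cells, 1.66 in CD150-CD48- cells and 0.17 in CD150-CD48+ cells. The counts behind the CD48- gates were 13 UMIs in KO and 49 in WT stem-gate cells, and 42 in KO and 18 in WT CD150-CD48- cells. Cdk4 had -0.39 in CD150+CD48- cells, -0.17 in CD150-CD48+ cells and -0.0888 in CD150+CD48+ cells, but 0.21 in CD150-CD48- cells. Within cycle-low CD150-CD48- cells Cdk4 was at -0.13, on the same side of 0 as in the other gates, from 240 UMIs in KO and 434 in WT. The exact intervals of these 2 levels overlapped, at 152.3 to 197.0 CPM in KO and 173.0 to 209.3 CPM in WT. Ccne1 had 1 UMI in KO and 5 in WT cycle-low cells of that gate. Markers of other cells differed in the whole CD150-CD48- gate too: the 8 erythroid markers other than haemoglobin summed to 1034 CPM in KO and 601 CPM in WT cells, and 7 mast cell markers to 1470 and 949 CPM. Their part in these ratios was not tested.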

How the results depend on the processing

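No paired analysis was possible because each genotype had 1 library, and for the same reason no replicate could be left out. Of 650 values under alternatives, 66 had the opposite sign: 14 of members past the fold, given below, 42 of members within it, and 10 of Cdkn2c. Apart from those 14, 502 values lay within the counting interval of the main value and 134 outside it. KO over WT in all LSK cells, 1 to 2 members were past the fold, with 2 when no minimum level was set. In CD150-CD48+ cells 2 were past it with free RNA subtracted, with no minimum level and with antibody tags scaled per 10000 tag UMIs, against 1 otherwise. In the stem gate the count was 4 and ranged from 2 with fixed quantiles to 6 when the UMI minimum was raised 2-fold. For stem-gate over CD150-CD48+ cells in KO it was 7 and ranged from 3 with Otsu gates and 4 with fixed quantiles to 8, and in WT from 6 to 8. The matching shares of all genes under these alternatives are not given here. The ranges are therefore not results about the members. KO over WT in the stem gate, Ccnd1 turned to -0.0827 with Otsu gates and -0.13 with quantiles, Ccne1 to 0.66, 0.31 and, in cycle-low cells, 0.042, and Ccne2 to 0.12, 0.0043 and, in cycle-low cells, 0.50. In KO stem-gate over CD150-CD48+ cells, Ccne1 turned to 1.18 with Otsu gates, 1.14 with quantiles and 0.54 in cycle-low cells, Ccne2 to 0.0456 and 0.0272, and Cdkn2d to -0.0562 with Otsu gates. The cause of these turns was not tested. Cdk6 over all LSK cells stayed between 0.41 and 0.63, including 0.56 with cells thinned to 8000 UMIs. In the stem gate its KO over WT ratio ranged from -0.06 to 2.35, the highest with free RNA subtracted. Cdk4 over all LSK cells ranged from -0.22 to -0.14. An HSC-like class without its cluster led by mitotic genes was chosen after seeing the data. The stem gate held 1597381 UMIs in KO and 3130204 in WT cells, and this depth limits genes under about 20 CPM there.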
